A study of Drosophila melanogaster with 4 samples.

Results

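Between its ends, chromosome arm 3R of Drosophila melanogaster carried 4676 of the 20574 clusters of POF enrichment in the combined list of the replicate set. These 4676 made up 23.9% of the clusters on the 6 assembled arms, over 21.1% of the bases of those arms. A cluster was counted when its midpoint fell at 3R:1500001-26900000 in FlyBase release 5 coordinates. That span of 25.4 Mb leaves off 1.5 Mb beside the centromere and about 1 Mb beside the telomere of an arm of 27905053 bp. The replicate 1 list placed 1551 of its 6433 clusters in the span, and the replicate 2 list placed 1190 of its 5786 clusters there. Of the clusters on the 6 arms, these were 25.3% in replicate 1 and 21.0% in replicate 2. The share in replicate 2 was thus no higher than the share of bases. Outside the span, 3R held 473 further combined clusters, 170 of replicate 1 and 140 of replicate 2.

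POF was profiled by ChIP-seq in wild type Oregon-R larvae of the 3rd instar, in 2 POF ChIP libraries and 2 input libraries. All 4 libraries share strain, genotype and stage, and the ChIP was made from homogenized larvae, so that clusters are averages over the tissues of the animal. The groups follow the titles and source names, since the free-text descriptions do not separate ChIP from input. Those of both replicate 1 libraries name ChIP DNA as well as input DNA, and those of both replicate 2 libraries name input DNA alone. The replicate 2 ChIP library, used in every comparison between replicates here, is thus a ChIP by its title and source name and not by its description. The labels do not tie the 2 ChIP replicates to separate larval collections, and their spread may be technical. The input libraries enter no comparison, as their lists were not analysed here, and the depth of each library is unknown.

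POF is an RNA-binding protein of flies, named for its painting of chromosome 4. On polytene chromosomes, antibodies against it stain chromosome 4 along its length, where it is known to bind transcribed genes and to raise their output. The long autosomal arms, 3R among them, are not coated in that way, and 3R carries ordinary euchromatin between its centromeric heterochromatin and its telomere. A cluster here is a stretch that the authors' caller marked as significantly enriched, with 1 score that is read from its values as log2 on its own list's scale. The list does not say what the score is relative to, so scores are used within a list or as ranks.

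The clusters lay along the whole of the span, in every window of 100 kb in the combined list. The combined list covered 34.2% of the bases of the span with 184 clusters per Mb. Replicate 1 covered 10.7% of the bases with 61.1 clusters per Mb, and replicate 2 covered 10.7% with 46.9 clusters per Mb. Both replicates thus covered nearly the same length, 2726758 bp in replicate 1 and 2727050 bp in replicate 2, or 10.7% ± 0.00081 (SD, n = 2). Replicate 1 did so with more and shorter clusters. The near match is one of totals, as 20.5% of the covered bases of either list were shared. On 2L, 3L and X between their ends, the SD of the covered share was 0.70, 0.77 and 3.85.

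Most clusters on 3R were short, and a small number were long. The median length was 1504 bp in the combined list, with 10th and 90th percentiles of 1052 bp and 3147.5 bp. In replicate 1 the median was 1586 bp and the 90th percentile 2345 bp, while in replicate 2 they were 2003 bp and 3612.4 bp. Clusters of at least 5000 bp numbered 5 in replicate 1, 37 in replicate 2 and 116 in the combined list. The share of such long clusters on 3R was 2.48% in the combined list, where 2.73% of the clusters on all 6 arms were as long. It was 0.322% against 0.229% over the arms in replicate 1, and 3.11% against 3.03% in replicate 2. These shares lie near those of the arms as a whole. The shortest clusters measured 1301 bp in either replicate list and 1001 bp in the combined one, and 262 combined clusters of the span (5.60%) were within 20 bp of that minimum.

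Scores were read within each list. The median score was 0.62 in replicate 1, 0.60 in replicate 2 and 0.42 in the combined list. The 10th and 90th percentiles were 0.50 and 0.74 in replicate 1, and 0.45 and 1.05 in replicate 2. A score of at least 1 was reached by 7 clusters of replicate 1 on 3R (0.451%, against 0.866% over the 6 arms). In replicate 2 it was reached by 129 (10.8%, against 11.9% over the arms), and in the combined list by 47 (1.01%, against 1.40%). As each list has its own scale, a score of 1 need not mean the same enrichment in different lists. Longer clusters had higher scores in replicate 2, with a Spearman's rho of 0.67 across 1190 clusters. The rho between length and score was 0.34 across 1551 clusters in replicate 1 and 0.14 across 4676 in the combined list. These coefficients describe clusters of 1 list, which share its library and its scale.

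**Figure D1:**
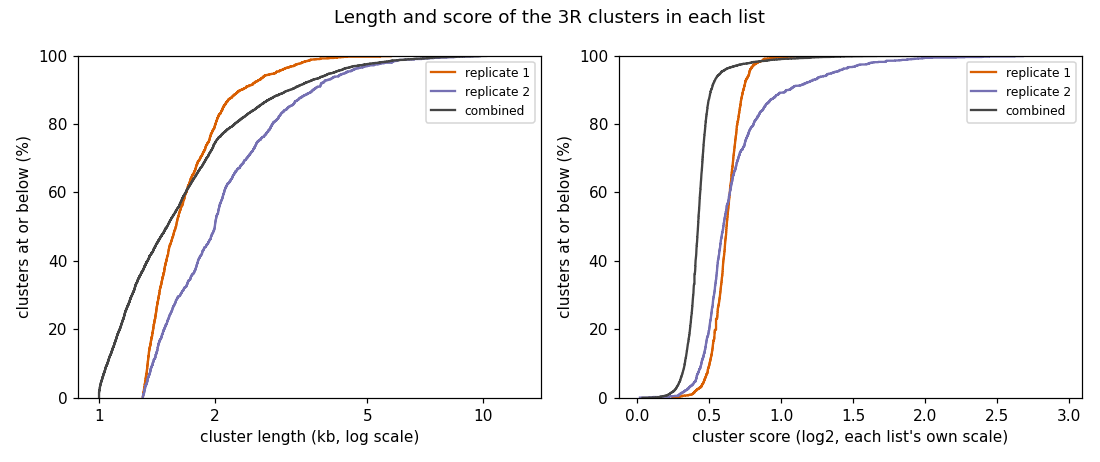
Cumulative share of the 3R clusters (%) at or below a length (kb, log scale, left) and at or below a score (log2, right), with a line for each list. Combined clusters start at 1001 bp and those of both replicates at 1301 bp, and replicate 2 has the longer clusters, with a median of 2003 bp against 1586 bp in replicate 1. Each score line is on its own list's scale.

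The first comparison set 3R against the left arms of chromosomes 2 and 3, 2L and 3L, cut in the same way at both ends. Clusters were denser on 3R than on either of them in both replicates. The other arms, 2R among them, were left out of this comparison. The excess is thus shown against 2L and 3L only, and in replicate 2 it did not hold against X. X was covered to 11.1% in replicate 2 and to 5.65% in replicate 1. Of the clusters on all assembled arms, the 3R span held 21.0% in replicate 2 and 25.3% in replicate 1, over 21.1% of the bases. In replicate 1, 3R was covered to 10.7%, against 8.62% on 2L and 8.70% on 3L. In replicate 2, 3R was covered to 10.7%, against 9.60% on 2L and 9.79% on 3L. The difference from the mean of 2L and 3L was 2.08 percentage points in replicate 1 and 1.04 in replicate 2, a mean of 1.56 ± 0.73 (SD, n = 2, two-sided exact sign-flip permutation p = 0.5). The mean difference was larger than the SD of the 2 replicates, but with 2 replicates this p is the smallest that the test can give, so the test cannot show a difference. In the combined list 3R was covered to 34.2%, against 27.98% on 2L and 29.7% on 3L.

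The number of clusters behaved in the same way. On 3R there were 61.1 clusters per Mb in replicate 1, against 49.1 on 2L and 49.6 on 3L. In replicate 2 there were 46.9 per Mb on 3R, against 41.95 on 2L and 44.8 on 3L. The mean difference from the 2 left arms was 7.59 ± 5.83 clusters per Mb (SD, n = 2, exact sign-flip permutation p = 0.5). Both replicates had the same direction, and replicate 1 showed a difference of 11.7 per Mb, against 3.47 in replicate 2.

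Length and score were close on 3R and on the left arms. The median length on 3R differed from the mean of 2L and 3L by -5.50 bp in replicate 1 and by 37 bp in replicate 2 (exact sign-flip permutation p = 1). The median score differed by 0.0012 in replicate 1 and by 0.0059 in replicate 2 (exact sign-flip permutation p = 0.5). The median score in replicate 1 was 0.62 on 3R and 0.74 on X, and in replicate 2 it was 0.60 on 3R and 0.71 on X, a difference that was not tested. X was also the arm on which the replicates differed most in covered share among these 4 arms, at 5.65% in replicate 1 and 11.1% in replicate 2.

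**Figure D2:**
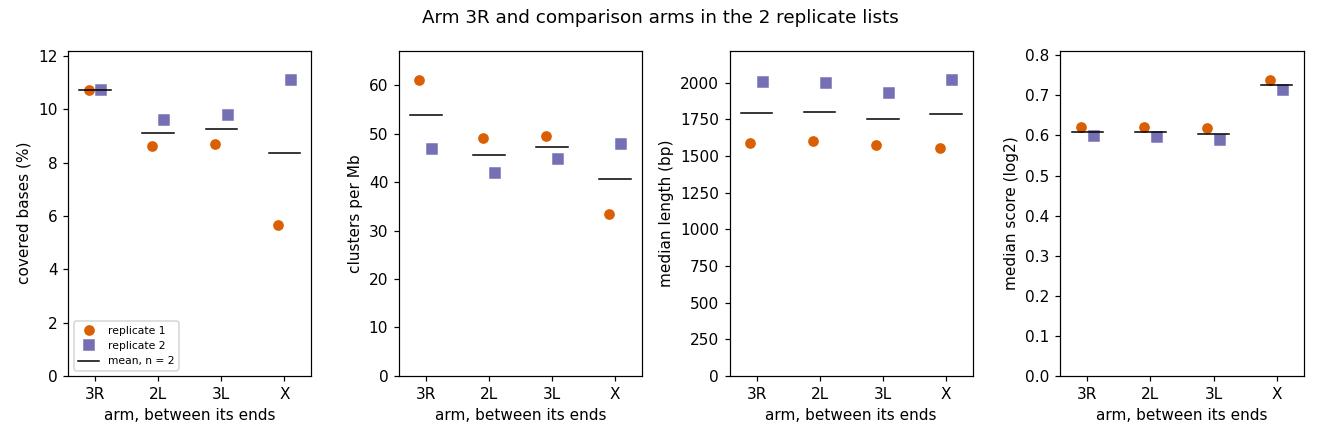
Covered bases (%), clusters per Mb, median length (bp) and median score (log2) of 3R, 2L, 3L and X between their ends, with a circle for replicate 1, a square for replicate 2 and a line for their mean (n = 2). On 3R the covered share is 10.7% in both replicates, above 2L and 3L in each, whereas median lengths differ by replicate and hardly by arm.

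Windows of 100 kb showed how evenly the clusters were spread. Over the 254 windows of the span, the combined list covered from 10.8% to 65.1%, with a median of 32.5%, and left no window empty. Replicate 1 covered from 0% to 32.9%, with a median of 10.2% and 3 empty windows. Replicate 2 covered from 0% to 34.7%, with a median of 9.44% and 16 empty windows, which is 6.30% of them. Replicate 2 was therefore the patchier list on 3R. Its 10th and 90th percentiles were 1.53% and 23.7%, against 3.31% and 18.3% in replicate 1. The same held for 2L, where replicate 2 left 18 of 205 windows empty and replicate 1 left 9. On 3L it was 18 of 220 in replicate 2 and 7 in replicate 1.

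**Figure D3:**
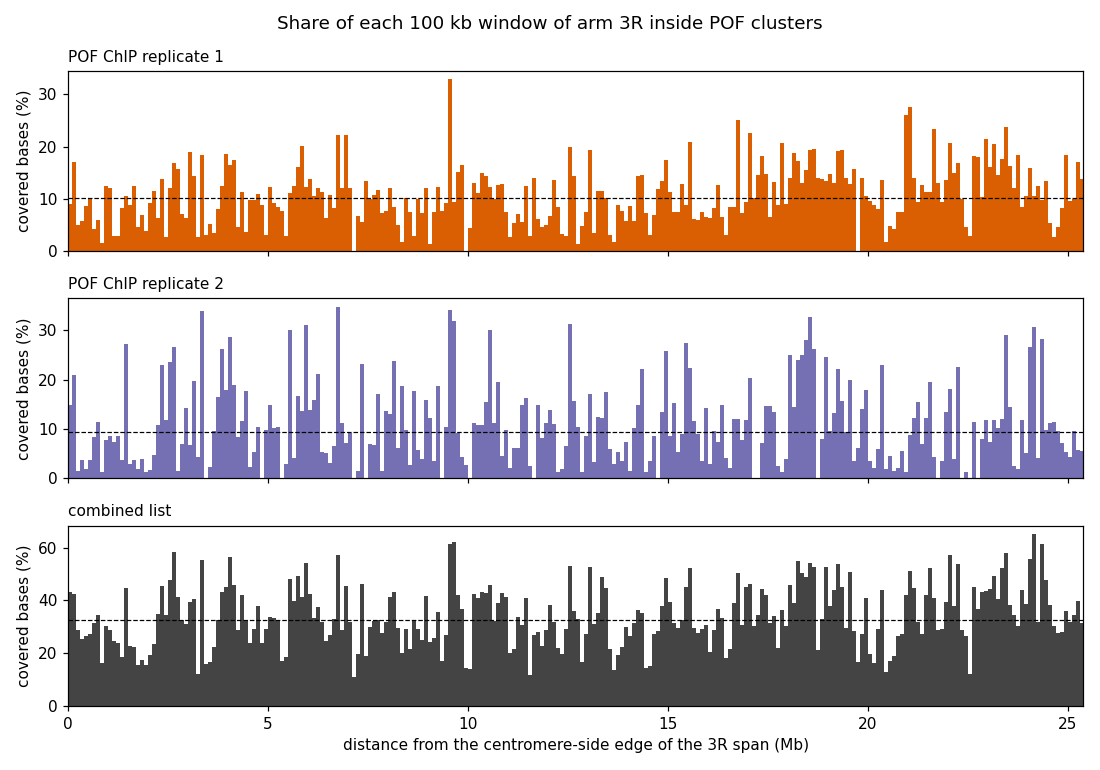
Share of bases (%) inside POF clusters in each of 254 windows of 100 kb along the 3R span, by distance from its centromere-side edge (Mb), with 1 panel per list and a dashed line at the median of its windows. A dense stretch 18 to 18.7 Mb from the edge stands in all 3 panels, and a gap about 7.1 Mb from the edge is empty in both replicates.

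The densest stretch shared by all lists lay from 19.5 to 20.2 Mb. All 7 of its windows were above the median of their list in the combined list and in both replicates. They were covered on average to 16.8% in replicate 1, 25.01% in replicate 2 and 49.5% in the combined list. In bins of 1 Mb, the bin from 19.5 to 20.5 Mb had the highest covered share of the 25 full bins in each list. It reached 15.9% in replicate 1 against a median bin of 10.2%, 20.8% in replicate 2 against 10.7%, and 45.3% in the combined list against 34.7%. Its clusters also scored high, with the highest median score of the bins in the combined list (0.44) and in replicate 2 (0.67). Bins about as dense occurred on 3L, where the highest was 15.9% in replicate 1, 18.1% in replicate 2 and 46.3% in the combined list, so such bins were not limited to 3R.

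The 5 windows with the highest covered share in the combined list fell in 3 places. These were 25.6 to 25.7 Mb (65.1%), 11.1 to 11.2 Mb (61.97%), 11 to 11.1 Mb (61.4%), 25.8 to 25.9 Mb (61.3%) and 4.1 to 4.2 Mb (58.5%). The neighbours at 11 Mb differed in what the replicates held. From 11 to 11.1 Mb, replicate 1 covered 32.9% and replicate 2 covered 34.2%, and no other window of replicate 1 in the span was covered as much. From 11.1 to 11.2 Mb, replicate 1 covered 9.46% and replicate 2 covered 31.9%. The window at 25.6 Mb likewise had 10.6% in replicate 1 and 30.6% in replicate 2. The longest runs of windows above the median of the combined list were 24.1 to 25.2 Mb, with 11 windows, and 7 to 7.8 Mb, with 8. The run at 24.1 Mb was covered to 17.2% in replicate 1 and 10.8% in replicate 2, and the run at 7 Mb to 13.6% and 18.3%.

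Empty stretches were short in the combined list and longer in the replicate lists. The widest gap between neighbouring combined clusters was 57949 bp at 3R:4695195-4753143, followed by 50656 bp at 3R:5016498-5067153 and 45067 bp at 3R:21964351-22009417. These 3 were also the widest stretches with no cluster in any of the 3 lists. The next were 38465 bp at 3R:10976458-11014922, which held part of 1 replicate 1 cluster, and 37550 bp at 3R:20494690-20532239. The median gap between combined clusters was 2076 bp, against 8479.5 bp for replicate 1 and 7790 bp for replicate 2. Gaps over 50 kb numbered 82 for replicate 1, 113 for replicate 2 and 2 for the combined list. In replicate 2 they took up 42.3% of the span, and in replicate 1 23.9%.

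One long stretch was empty in both replicates and thin in the combined list. Replicate 1 had no cluster over 157231 bp at 3R:8569388-8726618, its widest gap on the arm. Replicate 2 had none over 240106 bp at 3R:8546499-8786604, its 3rd widest, which contains the first. The combined list held 12 clusters in the gap of replicate 1, covering 9.18% of it. The window from 8.6 to 8.7 Mb inside it was the emptiest of the combined list, at 10.8%. The next emptiest were 13 to 13.1 Mb (11.8%), 4.7 to 4.8 Mb (12.1%), 24 to 24.1 Mb (12.2%) and 21.9 to 22 Mb (13.0%). None of these 5 windows had more than 2.86% in replicate 1 or 4.24% in replicate 2.

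Other wide gaps of a replicate list held many clusters of the other list or few. The widest gap of replicate 2, 268371 bp at 3R:23115402-23383772, held 25 replicate 1 clusters that covered 15.99% of it, and 56 combined clusters. Its next widest, 257272 bp at 3R:18577910-18835181, held 20 replicate 1 clusters covering 13.6%. Its gaps of 218107 and 206038 bp held 10 and 13 replicate 1 clusters, covering 7.21% and 9.91%. In the other direction, the gap of 151030 bp in replicate 1 at 3R:26034848-26185877 held 9 replicate 2 clusters covering 12.7%. The next 3 gaps of replicate 1, of 132773, 124940 and 119208 bp, held only 2, 1 and 2 replicate 2 clusters, covering between 2.25% and 2.84%, and so were nearly empty in both lists. The window with the largest excess of replicate 1 over replicate 2 was at 22.4 to 22.5 Mb, with 26.0% covered in replicate 1 and 1.39% in replicate 2. In the same direction it was followed by 19.3 to 19.4 Mb, with 20.6% and 1.36%, and 23.1 to 23.2 Mb, with 23.4% and 4.38%. The windows with the largest excess in replicate 2 were 11.1 to 11.2 Mb and 25.6 to 25.7 Mb, given above, and 7 to 7.1 Mb, where replicate 1 covered 11.2% and replicate 2 covered 30.0%.

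Many combined clusters stood close together. Of the 4675 gaps between neighbours, 1450 (31.0%) were at most 1000 bp, and 194 (4.15%) were at most 100 bp. Joined at gaps of up to 1000 bp, the 4676 clusters formed 3226 groups, of which 958 held several clusters. Groups of at least 10 kb numbered 3 in replicate 1, 9 in replicate 2 and 87 in the combined list. The longest spanned 37588 bp with 7 clusters at 3R:11141687-11179274, within the dense window at 11.1 Mb. The group with the most clusters held 8 over 17838 bp at 3R:23520856-23538693. Both groups were picked for mention with their sizes known.

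The telomere side of the arm was denser than the centromere side in replicate 1 and not in replicate 2. The span was divided at its middle, base 14200000. In replicate 1, 11.9% of the telomere side was covered, against 9.61% of the centromere side. In replicate 2 it was 10.5% against 10.9%, and in the combined list 35.9% against 32.5%. The mean difference over the replicates was 0.93 ± 1.87 percentage points (SD, n = 2, two-sided exact sign-flip permutation p = 1), so it lay within their spread. In clusters per Mb, replicate 1 had 66.4 on the telomere side and 55.7 on the centromere side, while replicate 2 had 45.4 and 48.3 (exact sign-flip permutation p = 1). Across the 25 full bins of 1 Mb, the covered share had a Spearman's rho with distance from the centromere of 0.46 for replicate 1, 0.0069 for replicate 2 and 0.46 for the combined list. The median score was higher on the telomere side by 0.013 in each replicate (exact sign-flip permutation p = 0.5, the smallest possible). It was 0.63 against 0.61 in replicate 1 and 0.61 against 0.59 in replicate 2. Median lengths were 1593 bp against 1569 bp in replicate 1, and 2003 bp on either side in replicate 2.

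The next question was how far the replicate lists shared clusters on 3R. Of the 1551 replicate 1 clusters, 388 (25.02%, exact 95% Clopper-Pearson interval 22.9% to 27.2%) were touched by a replicate 2 cluster over at least 1 bp. Over all 6 arms that share was 27.8%. Of the 1190 replicate 2 clusters, 376 (31.6%, interval 28.96% to 34.3%) were touched by replicate 1, and the share over the arms was 29.2%. The share over the arms lay above the interval for replicate 1 and inside it for replicate 2. The arms include 3R itself, and overlap by chance placement was not tested. The intervals cover counting error among the clusters of 1 list only, and treat neighbouring clusters as independent. In bases, 559648 were shared, 20.5% of the covered bases of either list and 11.4% of the 4894160 bases in either. Each list covered 10.7% of the span.

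Overlap went with length in both replicates, and with score in replicate 2. Each list was divided by rank into 4 parts of nearly equal number. Of the 388 longest replicate 1 clusters, from 1934 to 6855 bp, 38.9% were touched by replicate 2, against 16.8% of the 388 shortest. Of the 298 longest replicate 2 clusters 52.3% were touched, against 20.5% of the 298 shortest. Longer clusters offer more bases to touch, and the part of that in these shares was not tested. By score, the 298 highest clusters of replicate 2 were touched to 53.7% and the 298 lowest to 14.1%. For the 388 highest and 388 lowest of replicate 1 these shares were 27.3% and 25.3%. In replicate 2 score rose with length (Spearman's rho 0.67), and the parts of score and length in its shares were not separated. All 7 replicate 1 clusters with a score of at least 1 were touched. Of the 129 replicate 2 clusters with such a score, 97 were touched by replicate 1 and 32 were not.

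Where clusters of both lists met, they were not always centred on the same place. For each of the 388 replicate 1 clusters, the replicate 2 cluster with the largest overlap was taken, which gave 364 distinct replicate 2 clusters. Their midpoints lay a median of 681.75 bp apart, and 161 pairs (41.5%) were within 500 bp. The replicate 2 cluster was the longer one in 295 pairs (76.0%). The median lengths were 1732.5 bp in replicate 1 and 2515 bp in replicate 2. The scores of the pairs were related with Spearman's rho at 0.16 and Pearson's r at 0.37. In 5 pairs both scores were at least 1. Over the 254 windows of 100 kb, rho between the covered shares of the replicates was 0.38, with r at 0.40. Windows and pairs share 2 libraries and lie side by side, so these coefficients are descriptions.

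The densest windows of the 2 replicate lists were partly the same. Of the 64 most covered of the 254 windows in each list, 29 were common to both, which is 45.3% of each set. Of the 64 least covered windows of each, 24 were common, or 37.5%. Among the 64 most covered of replicate 1, 9 were among the 64 least covered of replicate 2, and 5 windows were the reverse.

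**Figure D4:**
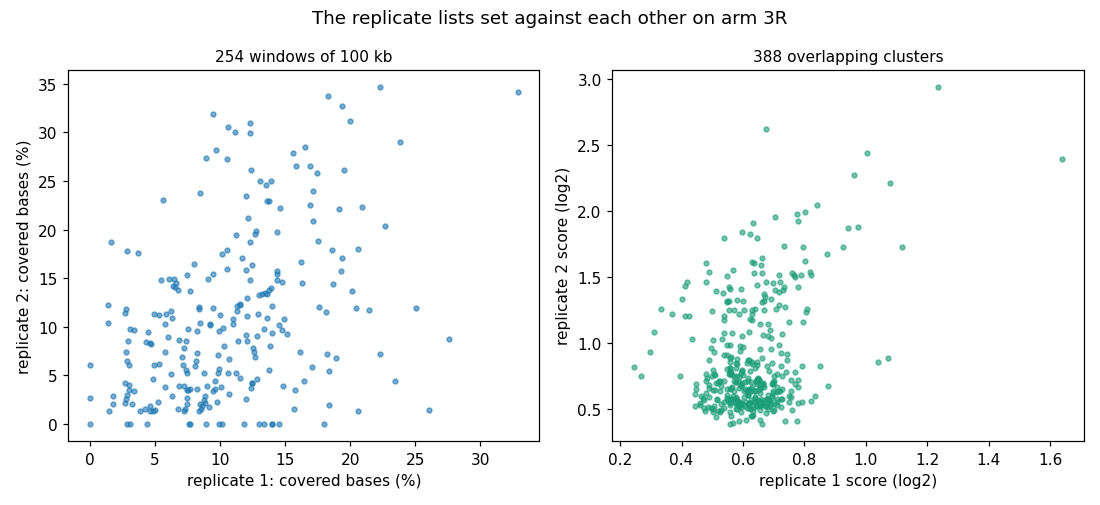
Left, covered bases (%) of 254 windows of 100 kb in replicate 1 against replicate 2. Right, scores (log2) of 388 replicate 1 clusters against that of the replicate 2 cluster with the largest overlap. The windows scatter widely around a common rise (rho 0.38), and the pairs with high scores in both lists are few, with 5 at or above 1 in each.

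Agreement varied along the arm. In bins of 1 Mb, the share of replicate 1 clusters touched by replicate 2 had a median of 25.4% and ran from 5.77% to 45.1%. The highest value was in the dense bin from 19.5 to 20.5 Mb, where 37 of 82 replicate 1 clusters were touched. The lowest was in the bin from 21.5 to 22.5 Mb, which starts 2 Mb further on, where 3 of 52 were touched. In that bin replicate 1 covered 9.20% and had 52 clusters, against its median of 59. Replicate 2 covered 5.18% there with 24 clusters, its lowest values among the 25 bins. Of the combined clusters in the bin, 1.96% were touched by both lists. Coverage differs between these bins in both lists, and its part in the touched shares was not tested. The next lowest shares for replicate 1 were in the bins from 14.5 to 15.5 Mb, with 6 of 50 clusters touched, and from 18.5 to 19.5 Mb, with 15.1%. The share of replicate 2 clusters touched by replicate 1 gave another order. It was also lowest from 21.5 to 22.5 Mb, at 12.5%, and was 17.9% from 14.5 to 15.5 Mb. From 18.5 to 19.5 Mb it was 35.3%, above its median over the bins of 31.1%.

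**Figure D5:**
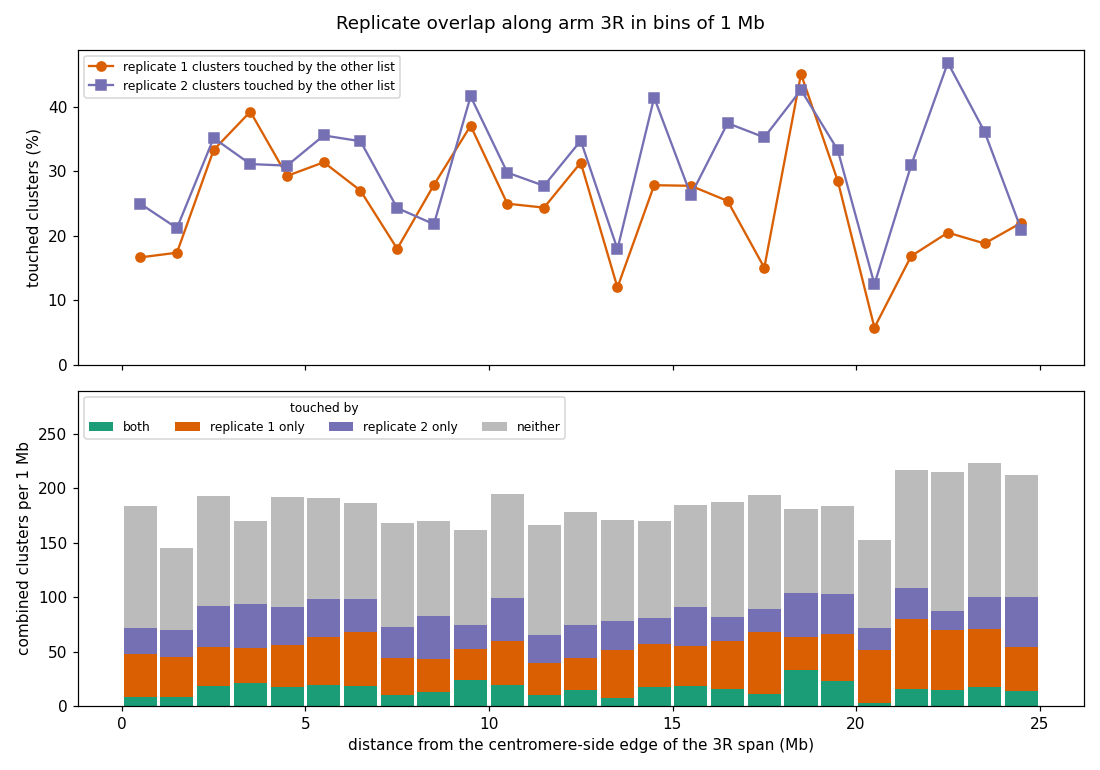
Top, share (%) of each replicate's clusters touched by the other list, in 25 bins of 1 Mb by distance from the centromere-side edge of the span (Mb). Bottom, number of combined clusters per bin, stacked by the replicate lists that touch them. The bin 18 Mb from the edge has the highest share for replicate 1 (45.1%), and the bin 20 Mb from the edge the lowest (5.77%).

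Most combined clusters on 3R had no counterpart in either replicate list. Of the 4676, 395 (8.45%) were touched by both lists and 1050 (22.5%) by that of replicate 1 alone. A further 770 (16.5%) were touched by replicate 2 alone and 2461 (52.6%) by neither. Over the 6 arms the shares were 8.57%, 20.7%, 19.7% and 51.0%, and 3R is near them. The clusters without a counterpart were short, with a median of 1220 bp against 3434 bp for those touched by both, and held 38.5% of the covered bases. Their median score was 0.42, against 0.51 for those touched by both. For clusters touched by 1 list it was as low, at 0.42 for replicate 1 only and 0.41 for replicate 2 only. In the other direction, the combined list touched 1466 of the replicate 1 clusters (94.5%, against 95.1% over the arms) and 1168 of those of replicate 2 (98.2%, against 98.1%). It missed 85 clusters of replicate 1 and 22 of replicate 2.

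The share touched by both was larger among longer clusters. Of the 2325 combined clusters of up to 1498 bp, 2 were touched by both lists and 1826 (78.5%) by neither. Of the 689 from 2000 to 2997 bp, 117 (17.0%) were touched by both and 130 (18.9%) by neither. Of the 116 with at least 5000 bp, 87 were touched by both, 27 by replicate 2 only, 1 by replicate 1 only and 1 by neither. Each replicate list starts at 1301 bp, so the shortest combined clusters could not contain a whole replicate cluster, but overlap needed only 1 bp. Longer clusters offer more bases to touch, and the part of that in these counts was not tested. A score of at least 1 was found in 40 of the clusters touched by both, in 3 touched by replicate 2 only, in none touched by replicate 1 only and in 4 touched by neither. Of the 100 highest scores of the combined list on 3R, 78 were touched by both, 14 by replicate 2 only and 8 by neither. Of the 10 highest, 8 were touched by both and 2 by neither. These counts by length and score have no counterpart over the arms as a whole, so whether they are particular to 3R was not tested.

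The 10 highest-scoring combined clusters found in both replicates were between 2252 and 4474 bp long, above the list's 75th percentile of 2017 bp. The leading one lay at 3R:9483608-9488081, with a combined score of 2.09. Its counterpart measured 2666 bp and scored 1.24 in replicate 1, and measured 2975 bp and scored 2.94 in replicate 2. Both counterparts sat in the telomere-side part of the combined cluster, where the replicate 1 cluster covered 59.6% of it and the replicate 2 cluster 66.1%. The score of 2.94 was the highest of replicate 2 on the arm.

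The 2nd, at 3R:19684131-19686382, had a combined score of 2.01, and scores of 0.67 in replicate 1 and 2.62 in replicate 2. It was the least supported of the 10 in replicate 1, at the 66.8 percentile of its scores on the 6 arms. The cluster at 3R:16646348-16649012 had a combined score of 1.99, with 1.00 in replicate 1 and 2.44 in replicate 2. The cluster at 3R:26631406-26635460 scored 1.95, and its replicate 1 counterpart of 2109 bp scored 1.64, the highest value of replicate 1 on the arm, with 2.40 in replicate 2.

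The remaining 6 had combined scores between 1.44 and 1.66. They lay at 3R:19650811-19655190, 3R:12623389-12625648, 3R:18942433-18945273, 3R:20076158-20079491, 3R:10728159-10731025 and 3R:15845686-15848604. Their replicate 1 scores ranged from 0.70 to 1.08 and their replicate 2 scores from 1.88 to 2.21. All 10 were thus in the upper tail of replicate 2, from the 99.1 percentile upward, and their median percentile in replicate 1 was 97.5. They were chosen for their combined scores, so high ranks in the replicates are partly built in. In the dense stretch from 19.5 to 20.2 Mb lay 3 of the 10, at 19650811, 19684131 and 20076158.

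All 5 of the longest combined clusters were touched by both lists, by 1 or 2 clusters of each. Replicate 1 clusters covered between 23.4% and 72.7% of them, and replicate 2 clusters between 37.5% and 94.7%. The longest, 12463 bp at 3R:23739531-23751993 with a score of 0.98, held a single replicate 2 cluster of 11349 bp (score 1.33), the longest of that list on the arm. In replicate 1 it held 2 clusters, which covered 58.0% of it. The next, 12135 bp at 3R:11151104-11163238 with a score of 0.49, held 2 clusters of each replicate, covering 23.4% of it in replicate 1 and 54.3% in replicate 2. The cluster of 10887 bp at 3R:19175168-19186054 (score 0.80) met 1 cluster of each, of 6855 bp in replicate 1 and 6929 bp in replicate 2. The first of these was the longest replicate 1 cluster on the arm. The last were 10455 bp at 3R:20063451-20073905 (score 0.50) and 10246 bp at 3R:24974635-24984880 (score 0.95). Over the span, 57 combined clusters held several replicate 1 clusters and 65 held several replicate 2 clusters, with at most 3 of either.

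The extremes of each replicate list on 3R were touched by the other list, but not always by one of its extremes. The highest score of replicate 1, 1.64, was at 3R:26633183-26635291, and the next, 1.24, at 3R:9485311-9487976. Its 3rd highest, 1.12, was at 3R:12976485-12978563. That cluster lay wholly inside a replicate 2 cluster of 4745 bp that scored 1.72. The 2nd highest score of replicate 2, 2.68, was at 3R:18575334-18577909, next to its gap of 257272 bp. A replicate 1 cluster of 5375 bp with a score of 1.07 covered 87.3% of it. The longest clusters of replicate 1, 6855 bp at 3R:19175973-19182827 and 5775 bp at 3R:23739583-23745357, lay within the long combined clusters described above. The 3rd longest cluster of replicate 1, 5768 bp at 3R:24944260-24950027 with a score of 0.94, met a replicate 2 cluster of 4644 bp that scored 1.87. The 2nd longest of replicate 2, 9844 bp at 3R:8327657-8337500 with a score of 1.51, held 3 replicate 1 clusters that covered 54.1% of it. The 3 highest scores and the 3 longest clusters of each replicate list were all touched by the other list.

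The highest-scoring clusters backed by 1 list or by none differed between these classes. The highest combined scores among those touched by replicate 2 only were 1.21 at 3R:3298183-3301690, 1.09 at 3R:4636287-4638498 and 1.04 at 3R:14223731-14226114. They were followed by 0.99 at 3R:1560653-1563892 and 0.91 at 3R:23460679-23463268. Each of the 5 matched a replicate 2 cluster with a score between 1.35 and 1.63. They measured from 2212 to 3508 bp, where the 10 highest touched by both measured from 2252 to 4474 bp. Among those touched by replicate 1 only, the highest was 0.65 at 3R:21658051-21659162, with a replicate 1 score of 0.86. The next were 0.61 at 3R:3522485-3525532, 0.58 at 3R:24012761-24013996, 0.58 at 3R:14783195-14784545 and 0.57 at 3R:15757750-15760141. The highest score of the combined list on 3R, 2.86, belonged to a cluster of 1071 bp at 3R:3870855-3871925 that neither replicate list touched. The next among those touched by neither were 1.72 at 3R:8325554-8326598, 1.28 at 3R:6081975-6083060, 1.26 at 3R:16967356-16968356 and 0.97 at 3R:16975111-16976111. All 5 were under 1100 bp long, below the shortest cluster of the replicate lists.

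Clusters of all 3 lists lay on both sides of each edge of the span. On the centromere side, the first combined cluster inside was at 1502987 to 1504790 (score 0.40), and the last outside at 1497336 to 1502313 (score 0.45). On the telomere side, the last inside was at 26895543 to 26897425 (score 0.43), and the first outside at 26903619 to 26907485 (score 0.57). The replicate lists had wider gaps at the edges. Replicate 1 had no cluster between 1477930 and 1517614 on the centromere side, and replicate 2 had none between 26888268 and 26911315 on the telomere side. The replicate clusters next to the edges had scores between 0.37 and 0.84 in replicate 1, and between 0.49 and 1.22 in replicate 2.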

How the data were processed

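The lists hold the authors' clusters of significant enrichment, from each POF ChIP library and from both combined. The submitters' processing notes name Bowtie 0.12.7. Per the file headers, the build is FlyBase release 5. The sources used here name no caller, threshold or input, and do not say whether reads were pooled. The deposited score is taken as log2: in replicate 1, 90.8% of 5932 scores differ from the most frequent score by the log2 of a ratio of whole numbers with denominators up to 200 (relative tolerance 1e-09), against 45.3% in the combined list and 30.6% in replicate 2. For base e, 1 score of the combined list did so and none of the replicate lists. Depth is unknown, and its effect on the calls cannot be judged.

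The 1 region called depleted was left out. Spans of 2L, 3L and X end 1.5 Mb from the centromere and 1 Mb from the telomere, with the inner edges rounded to 100 kb. Covered share is the bases of the clusters over the bases of the span, and overlap needed at least 1 bp. Differences between stretches were tested over the 2 replicates by an exact two-sided sign-flip permutation test, in 8 comparisons. Since no p was below 0.5, no adjustment was made. Named were the 10 highest-scoring combined clusters touched by both replicate lists and the 5 highest of each other class. The 5 longest combined clusters, the 5 longest combined gaps, the 5 densest and 5 emptiest windows and the 3 longest gaps common to all lists were named too. So were the 3 windows that differed most between replicates in each direction, the 3 highest scores and 3 longest clusters of each replicate list, and the clusters next to the span edges. The stretch, the comparisons and the ranks were chosen with earlier results of these data known. The gene table used here is of release 6 and no coordinates were converted, so no gene is named and no sequence is shown. Counting of overlaps and bases was tested on simulated lists. Computation used scipy 1.17.1, pandas 2.3.3 and numpy 2.4.6 under Python 3.11.15, and figures matplotlib 3.10.9.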

Additional observations from a re-analysis of the deposited data

How the results depend on the processing

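No paired analysis was possible because cluster lists of the inputs were not analysed here, so no groups with shared replicate numbers could be set against each other. Leaving out each replicate in turn gave differences between 3R and the left arms of -5.50 to 37 bp in median length. It gave differences between the telomere and centromere sides of -0.40 to 2.25 percentage points covered and of -2.83 to 10.6 clusters per Mb. The direction of these 3 thus rests on 1 replicate. The difference in median score from the left arms turned to -0.0024 with scores at or above the median. The covered share and clusters per Mb stayed higher on 3R than on the left arms under every alternative run, and in the combined list, a check added after the data were seen.

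With scores at or above the median, the mean of the replicates became 5.70% covered, 24.1 clusters per Mb, 2162.5 bp and a score of 0.73, and the combined list 17.2%, 80.98 per Mb and 0.47. With lengths of at least 2000 bp, the mean became 5.17%, 18.2 per Mb, 2445.5 bp and 0.72, and the combined list 15.5%, 47.4 per Mb, 2770.5 bp and 0.46. These filters remove clusters by construction. Merging clusters within 1000 bp gave 11.0% for the mean, and 36.7%, 127 per Mb and 1816 bp for the combined list. A span shorter by 1 Mb at each end gave 10.9% and 34.3%.

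The share of replicate 1 clusters touched by replicate 2 was 17.9% with scores at or above the median, 32.6% with lengths of at least 2000 bp, 19.2% when at least 50% had to be covered and 19.1% by the midpoint. For replicate 2 clusters these were 22.3%, 17.8%, 19.4% and 20.4%. The score and length filters were applied to the touching list as well, which left fewer clusters to meet. Against the whole replicate 1 list, 53.7% of the 298 highest-scoring and 52.3% of the 298 longest replicate 2 clusters were touched. For the 388 highest-scoring and 388 longest of replicate 1 these shares were 27.3% and 38.9%. The share of combined clusters touched by both was 6.03% with the score filter, 12.9% after merging, 4.47% at 50% and 5.37% by the midpoint. Over windows, rho was 0.21 and r 0.26 with the score filter, and r was 0.27 for clusters per window; the cause was not tested.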

Other observations

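Scores that repeat exactly were common on 3R. The most frequent score of the combined list, 0.398, was shared by 133 of the 4676 clusters (2.84%), and the next most frequent by 12. Of these 133, 83 were touched by neither replicate list, 28 by replicate 1 only, 17 by replicate 2 only and 5 by both, and their lengths ran from 1001 to 7169 bp. In replicate 1 the most frequent score, 0.548, was shared by 50 clusters (3.22%), and in replicate 2 the most frequent was shared by 5. Distinct scores numbered 1143 in replicate 1, 1098 in replicate 2 and 3395 in the combined list. These counts were made after the data were seen.

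Some replicate clusters bridged several combined clusters. In replicate 1, 43 of 1551 touched 2 combined clusters, and in replicate 2, 59 of 1190 touched 2 and 2 touched more. The 3rd longest cluster of replicate 2 on the arm, 9392 bp at 3R:24972504-24981895, touched 2 combined clusters and was covered over 14.2% by 1 replicate 1 cluster.

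Divided at their list's median, the 254 windows formed 106 runs of neighbours on the same side in replicate 1, 112 in replicate 2 and 98 in the combined list. The longest run above the median was 17 windows in replicate 1, from 19.5 to 21.2 Mb, over which replicate 1 covered 15.7% and replicate 2 covered 17.7%. The longest in replicate 2 were of 7 windows. Neighbouring windows had a Spearman's rho of 0.27 in replicate 1, 0.15 in replicate 2 and 0.37 in the combined list, as a description across windows of 1 list.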
